A study of Mus musculus with 8 samples.

Results

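Chloride gradients in brain cells are set by cotransporters and by chloride channels and exchangers, and 9 mouse genes of these families are described here: the CLC genes Clcn1 to Clcn7 and the cation-chloride cotransporter genes Slc12a2 and Slc12a5. They were chosen by name, and all 9 were found among the 54446 genes of the deposited count table. Their levels were compared between 4 samples from mice with a gene trap in both copies of Scn2a (genotype Scn2agt/gt, homozygous, here HOM replicates 1 to 4) and 4 samples from wild-type littermates (WT replicates 1 to 4), born to heterozygous pairs. All carry the strain label C75BL6. Scn2a encodes the sodium channel NaV1.2, which drives action potentials in brain neurons, and a gene trap cuts short the transcript of the gene it sits in. The comparison asks what a severe shortage of this channel does in mice. Age, sex, brain region and dissection are not given in the labels. Nor do they say that every sample is a mouse of its own. The p-values therefore measure only how far these samples scatter, which may be technical.

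Chloride entry or exit decides whether the opening of GABA-A receptors, which are chloride channels, excites or inhibits a neuron. Slc12a2 (the protein NKCC1) carries chloride into cells together with sodium and potassium, and Slc12a5 (KCC2), found in neurons, carries it out together with potassium. In maturing neurons the exporter comes to dominate. The CLC proteins fall into 2 kinds. Clcn1 and Clcn2 encode chloride channels of the cell surface, whereas the products of Clcn3, Clcn4, Clcn5, Clcn6 and Clcn7 exchange chloride for protons in endosomes, lysosomes and related vesicles.

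Promoter windows show what the members share and do not share upstream. RefSeq windows on GRCm38.p6, each from 250 bases before a gene's start to 50 after it, were found for 8 of the 9 members, 13 windows in all. No window was found for Slc12a2, so it was not searched for motifs. The windows of 4 members are printed on the gene's strand: that of the 1 gene whose level differed (Clcn1), those of the endosomal pair that share a motif (Clcn3 and Clcn4), and that of a lysosomal gene (Clcn7). They lie at chr6:42286435-42286734 (plus strand), chr8:60983262-60983561 (minus), chr7:7299508-7299807 (minus) and chr17:25133141-25133440 (plus). Capitals mark 3 motifs, each searched on either strand. The first is TATAAA, a core element that helps place transcription starts. The E-box is spelled CACGTG. The cAMP response element is spelled TGACGTCA. None of these marked stretches overlaps another.
Clcn1: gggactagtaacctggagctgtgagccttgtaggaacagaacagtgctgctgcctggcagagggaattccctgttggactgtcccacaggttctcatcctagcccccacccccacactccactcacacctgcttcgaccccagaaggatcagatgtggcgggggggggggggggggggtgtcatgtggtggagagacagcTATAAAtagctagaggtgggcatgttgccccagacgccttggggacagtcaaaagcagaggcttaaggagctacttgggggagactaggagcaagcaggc
Clcn3: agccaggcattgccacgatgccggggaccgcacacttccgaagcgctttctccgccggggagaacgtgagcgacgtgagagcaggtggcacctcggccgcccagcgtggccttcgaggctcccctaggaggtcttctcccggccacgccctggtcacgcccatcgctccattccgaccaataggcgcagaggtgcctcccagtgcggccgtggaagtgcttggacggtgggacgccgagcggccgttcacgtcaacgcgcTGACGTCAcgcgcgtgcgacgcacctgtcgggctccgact
Clcn4: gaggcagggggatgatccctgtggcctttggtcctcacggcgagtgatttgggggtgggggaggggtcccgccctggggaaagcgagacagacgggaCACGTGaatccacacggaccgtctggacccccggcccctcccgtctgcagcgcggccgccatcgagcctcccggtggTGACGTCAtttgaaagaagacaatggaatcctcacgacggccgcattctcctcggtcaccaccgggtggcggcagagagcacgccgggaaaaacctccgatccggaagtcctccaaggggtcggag
Clcn7: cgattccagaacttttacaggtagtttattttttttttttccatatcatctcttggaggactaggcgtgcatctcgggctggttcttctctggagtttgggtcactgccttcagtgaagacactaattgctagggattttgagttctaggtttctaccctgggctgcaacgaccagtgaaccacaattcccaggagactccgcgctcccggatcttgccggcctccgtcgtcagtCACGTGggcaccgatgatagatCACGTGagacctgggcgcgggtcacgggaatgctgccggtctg
TATAAA stood in 1 window each of Clcn1 and Clcn5, in Clcn1 at position -50 from the start, and in 13.6% of all 32851 windows of the table. The element TGACGTCA, the letters bound by the activity-dependent factor CREB, was in windows of Clcn3 (position 10) and Clcn4 (position -76) and in 1.79% of all windows. CACGTG, the core of the site bound by the lysosomal gene regulator TFEB among others, was in windows of Clcn4, Clcn6, Clcn7 and Slc12a5, and in 7.15% of all windows. It occurred at 2 places in the window of Clcn6 and at 2 in that of Clcn7. The letters GCGNGGGCG, bound by EGR factors, were in 0 of the 13 member windows and in 5.55% of all. These matches describe letters and say nothing of binding.

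Total counts lay between 27993412 and 37538988 per library. Scn2a, the trapped gene, stood at 122, 147, 131 and 112 CPM (counts per 1e6 of the TMM-adjusted library size) in HOM replicates 1 to 4, against 477, 371, 477 and 415 CPM in WT replicates 1 to 4, and every HOM library was below every WT library. Although the samples are labelled neuron, markers of other cells were present. Summed over 7 pan-neuronal markers the level was 5551 to 6252 CPM in HOM and 6433 to 7316 CPM in WT, and over 10 astrocyte markers 4887 to 6057 CPM in HOM and 6062 to 6689 CPM in WT. Choroid plexus markers, of the epithelium that makes cerebrospinal fluid, summed to between 27.9 and 251.7 CPM in HOM libraries and between 168.9 and 1824.7 CPM in WT libraries, with WT replicate 4 the highest. Counts of 4 Y-linked genes summed to 2 in HOM replicate 4 and to between 4452 and 5984 in each other library, and the labels give no sex. In bulk RNA, fewer cells of a type and less RNA per cell cannot be told apart.

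Of the 9 members, 1 rose in HOM (Clcn1), 0 fell and 8 did not pass the edgeR quasi-likelihood test with a Benjamini-Hochberg adjusted p under 0.05 over all 17395 genes tested. The background is 5.40% of all genes called, 2.47% higher and 2.94% lower in HOM, so 1 call among 9 genes is little above it. All 9 members passed the filter on low counts. At an unadjusted p under 0.05 there were 6 members, beside 22.9% of all genes. DESeq2 called 4 of the 9 members (Clcn1, Clcn3, Clcn4 and Slc12a2) and 1900 of all 17395 genes, against 940 genes with edgeR. At 2 members the HOM and WT libraries held no common range of CPM, Clcn1 (higher in HOM) and Clcn4 (lower in HOM), beside 14.1% of all genes, 6.63% higher and 7.47% lower. The log2 fold change (HOM over WT throughout) was above 0 for 3 of the 9 members, beside 50.2% of all genes. The median log2 fold change was -0.06 over the members and 0.00 over all genes tested.

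Levels can be compared between the members per length. Per kb of merged exons, Slc12a5 was the highest in either genotype, at 95.7 ± 4.94 CPM per kb in HOM and 99.8 ± 4.68 CPM per kb in WT (SD, n = 4). The order after it in HOM was Clcn4 (21.1 CPM per kb), Clcn6 (17.5), Clcn2 (13.5), Clcn7 (11.4), Clcn3 (10.4), Slc12a2 (6.97), Clcn1 (1.68) and Clcn5 (1.25). The only neighbours in that HOM order whose libraries overlapped were Clcn7 and Clcn3. In WT the order was Clcn4 (24.1 CPM per kb), Clcn6 (17.6), Clcn3 (12.6), Clcn2 (12.0), Clcn7 (10.95), Slc12a2 (9.77), Clcn5 (1.49) and Clcn1 (1.13). There the neighbours Clcn3, Clcn2, Clcn7 and Slc12a2 overlapped in a chain, while Clcn5 and Clcn1 were clear of each other and stood in the opposite order to HOM. The counts appear to include intron reads, so levels per kb of gene span were also set in order: Slc12a5 stayed first (18.3 CPM per kb in HOM, 19.1 in WT) and Clcn5, which has the longest span of the members at 165549 bases, came last in either genotype (0.0866 in HOM, 0.103 in WT).

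**Figure D1:**
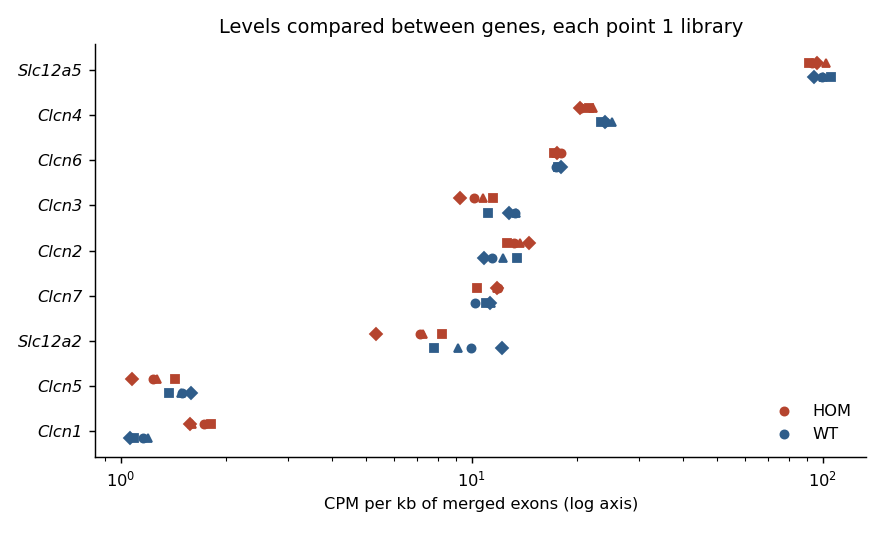
Level of each gene in CPM per kb of merged exons (log axis), 1 point per library, HOM in red above WT in blue, with replicates 1 to 4 as circle, square, triangle and diamond. Slc12a5 stands apart at 91.1 to 102 in HOM and 94.4 to 106 in WT, and Clcn5 and Clcn1 lie below 2 in every library.

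Among the surface channels, Clcn1 rose in HOM and Clcn2 did not pass. Clcn1 (ENSMUSG00000029862, chromosome 6, 42286685 to 42315756 on GRCm38, plus strand) is known as the chloride channel that stabilises the resting potential of skeletal muscle, where its loss causes myotonia. Its level was 9.35, 9.84, 8.65 and 8.53 CPM in HOM replicates 1 to 4, against 6.27, 5.93, 6.48 and 5.77 CPM in WT replicates 1 to 4. Every HOM library was above every WT library. The means were 9.09 ± 0.616 CPM in HOM and 6.12 ± 0.322 CPM in WT (SD, n = 4), a ratio of 1.49 in the fit (log2 fold change 0.57, SE 0.10, edgeR adjusted p = 0.0108). These values rest on 338, 280, 279 and 302 counts in HOM and 232, 180, 181 and 182 counts in WT. The call held with each library left out in turn (edgeR adjusted p from 0.0162 to 0.0402) and ended when the choroid plexus level entered the fit as covariate (log2 fold change 0.52, edgeR adjusted p = 0.203), a setting under which 35 of all 17395 genes were called.

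Skeletal muscle markers, set beside Clcn1, gave 1 call. Over all genes 5.40% were called, 2.47% higher in HOM. Of 14 skeletal muscle markers 8 passed the filter on low counts, 4 with a log2 fold change above 0 and 4 below it. Of these 8, 3 had an unadjusted p under 0.05, beside 22.9% of all genes. The sum over all 14 was 37.0 to 42.4 CPM in HOM and 39.9 to 46.0 CPM in WT. Most of it came from Ryr1, a calcium release channel that brain also expresses, at 29.1 CPM in HOM and 33.3 CPM in WT. The mean log2 CPM of the 14 markers takes in those below the low-count filter. It had the other sign, at -0.75 in HOM and -0.91 in WT (exact two-sided permutation test, p = 0.0286). Its part in the Clcn1 value was not tested. Of the genes that did not pass, the fast myosin gene Myh4 stood at 1.07 CPM in HOM and 0.700 CPM in WT and the muscle creatine kinase gene Ckm at 0.902 CPM in HOM and 0.645 CPM in WT. On the other side, the myosin light chain gene Mylpf stood at 0.557 CPM in HOM and 0.724 CPM in WT, and the myosin gene Myh2 at 1.498 CPM in HOM and 1.71 CPM in WT. The list's 1 called member was Casq1, the calcium buffer of the muscle store, at 3.79 ± 0.645 CPM in HOM and 2.04 ± 0.195 CPM in WT (SD, n = 4). Its log2 fold change was 0.89 (SE 0.17, edgeR adjusted p = 0.0154). Acta1, skeletal actin, was listed at 0 in every library, but it lies inside another gene's span and has no measured value. The last exonic stretch of Clcn1, 445 bases or 8.20% of its exonic length, lies under Fam131b on the opposite strand, and the counts appear to ignore strand. Fam131b did not pass, at 137 CPM in HOM and 160 CPM in WT (log2 fold change -0.23, SE 0.07, edgeR adjusted p = 0.0631).

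Clcn2 (ENSMUSG00000022843, chromosome 16, 20702964 to 20717746, minus strand) encodes a channel that opens on hyperpolarisation and serves neurons and glia, and its loss in mice causes vacuoles in white matter. It stood at 79.2, 75.8, 82.4 and 87.7 CPM in HOM replicates 1 to 4 and at 69.0, 80.9, 73.8 and 65.2 CPM in WT replicates 1 to 4. The groups overlapped, since WT replicate 2 was above HOM replicates 1 and 2. The log2 fold change was 0.17 (SE 0.08, edgeR adjusted p = 0.210). Once the choroid plexus level was a covariate it was 0.04 (edgeR adjusted p = 0.918).

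**Figure D2:**
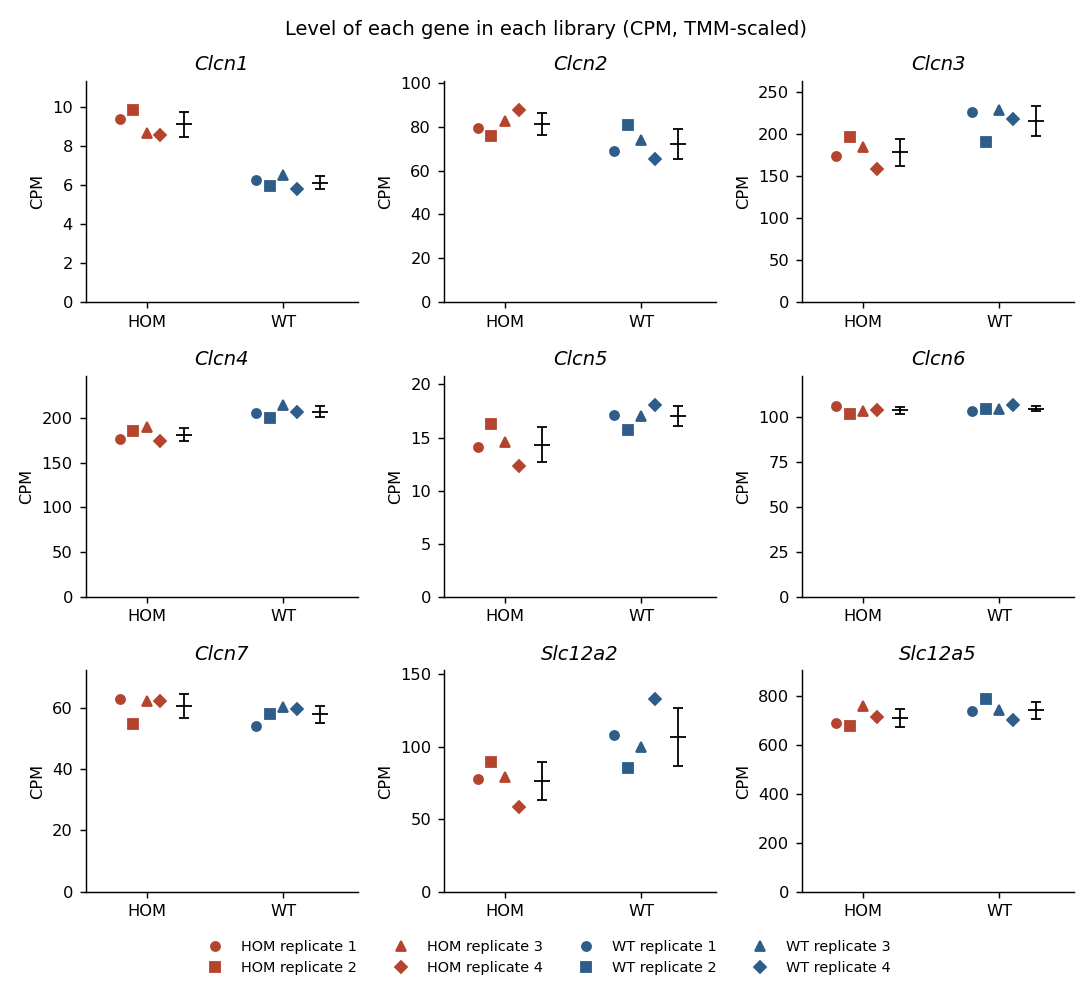
CPM of each of the 9 genes in each library (vertical axes from 0), HOM in red left of WT in blue, with replicates 1 to 4 as circle, square, triangle and diamond and the mean ± SD (n = 4) as a black bar beside each group. The genotypes are apart for Clcn1 (8.53 to 9.84 CPM in HOM, 5.77 to 6.48 CPM in WT) and for Clcn4 (174 to 189 CPM in HOM, 200.2 to 215 CPM in WT), and overlap for the other 7 genes.

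The endosomal exchangers Clcn3, Clcn4 and Clcn5 had log2 fold changes below 0, and none of these 3 passed the test. Clcn3 (ENSMUSG00000004319, chromosome 8, 60910389 to 60983300, minus strand) acts in endosomes and synaptic-like vesicles, and mice without it lose the hippocampus after birth. Its level was 174, 196, 184 and 159 CPM in HOM replicates 1 to 4 and 226, 190, 228 and 217 CPM in WT replicates 1 to 4. HOM replicate 2 was above WT replicate 2, and every other HOM library was below every WT library. The log2 fold change was -0.28 (SE 0.08, edgeR adjusted p = 0.0657). It passed without HOM replicate 2 (log2 fold change -0.31, edgeR adjusted p = 0.0447) and without WT replicate 2 (-0.33, 0.0359), with DESeq2 (adjusted p = 0.0216) and with 1 surrogate variable (edgeR adjusted p = 0.00736).

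Clcn4 (ENSMUSG00000000605, chromosome 7, 7282309 to 7300851, minus strand) encodes a partner that reaches endosomes in complexes with the Clcn3 product. It stood at 176, 185, 189 and 174 CPM in HOM replicates 1 to 4, against 205, 200.2, 215 and 206 CPM in WT replicates 1 to 4. Every HOM library was below every WT library, by a small step. The means were 181 ± 7.31 CPM in HOM and 207 ± 6.09 CPM in WT (SD, n = 4), with a log2 fold change of -0.19 (SE 0.06, edgeR adjusted p = 0.0754). The adjusted p was 0.0158 with DESeq2 and 0.0210 with 1 surrogate variable in edgeR. An antisense gene, Gm45631, lies inside Clcn4 and was listed at 0, and 11.5% of the exonic length of Clcn4 is shared.

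Clcn5 (ENSMUSG00000004317, chromosome X, 7153810 to 7319358, minus strand) is best known from the kidney, where it serves protein uptake in the proximal tubule. Its level was 14.1, 16.3, 14.5 and 12.3 CPM in HOM replicates 1 to 4 and 17.2, 15.8, 17.0 and 18.1 CPM in WT replicates 1 to 4. As for Clcn3, the overlap came from HOM replicate 2 and WT replicate 2. The log2 fold change was -0.25 (SE 0.09, edgeR adjusted p = 0.137). Without HOM replicate 4, the library nearly without Y-linked counts, it was -0.17 (edgeR adjusted p = 0.299). In that fit the autosomal genes Clcn3 (-0.21), Clcn4 (-0.15) and Slc12a2 (-0.36) were also smaller in size than with all libraries. Clcn1 (0.62) and Clcn7 (0.07) were larger. A part of sex in these values was not tested.

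Clcn6 and Clcn7, the exchangers of late endosomes and lysosomes, differed by less than the spread between libraries. Clcn6 (ENSMUSG00000029016, chromosome 4, 148004259 to 148038821, minus strand), expressed mainly in neurons, stood at 106, 102, 103 and 104 CPM in HOM replicates 1 to 4 and at 103, 104, 105 and 107 CPM in WT replicates 1 to 4. It was the steadiest member, with a coefficient of variation of 1.83% in HOM and 1.54% in WT. Its log2 fold change of -0.01 had a 95% confidence interval from -0.13 to 0.10. Clcn7 (ENSMUSG00000036636, chromosome 17, 25133391 to 25162104, plus strand) is the lysosomal exchanger whose loss causes osteopetrosis and neuronal storage disease. It stood at 62.9, 54.8, 62.3 and 62.3 CPM in HOM replicates 1 to 4 and at 54.1, 57.9, 60.2 and 59.5 CPM in WT replicates 1 to 4. HOM replicate 2 was low among HOM libraries, and the groups overlapped (log2 fold change 0.06, 95% confidence interval -0.08 to 0.21, edgeR adjusted p = 0.612). Without HOM replicate 2 the fold change was 0.12 on the log2 scale, and it was 0.03 without WT replicate 1. Ostm1, the partner that Clcn7 needs for stability, did not pass either, at 53.4 ± 3.19 CPM in HOM and 60.8 ± 3.64 CPM in WT (SD, n = 4; edgeR adjusted p = 0.134).

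**Figure D3:**
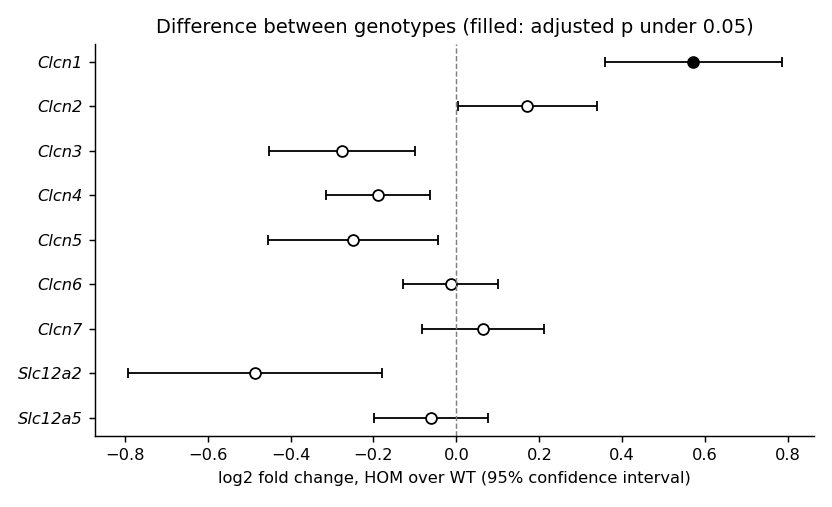
Log2 fold change (HOM over WT) of each gene from the edgeR fit, with its 95% confidence interval as a horizontal bar; the filled point has an adjusted p under 0.05 and open points do not. Clcn1 lies at 0.57, Slc12a2 at -0.49 with the widest interval (-0.79 to -0.18), and Clcn6 at -0.01.

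The chloride importer gene Slc12a2 had a lower mean in HOM and the largest spread of the members relative to its mean (coefficient of variation 17.2% in HOM and 18.7% in WT), and it did not pass. Slc12a2 (ENSMUSG00000024597, chromosome 18, 57878678 to 57946821, plus strand) is expressed in glia, endothelium and choroid plexus as well as neurons. Its level was 77.5, 89.7, 79.1 and 58.2 CPM in HOM replicates 1 to 4 and 108, 85.2, 100.1 and 133 CPM in WT replicates 1 to 4. Only HOM replicate 2 and WT replicate 2 overlapped. The means were 76.2 ± 13.1 CPM in HOM and 106.6 ± 19.96 CPM in WT (SD, n = 4), and the log2 fold change was -0.49 (SE 0.14, edgeR adjusted p = 0.0633). The test passed with DESeq2 (adjusted p = 0.0128), with 1 surrogate variable (edgeR adjusted p = 0.0224), with no filter on low counts (0.0273), without HOM replicate 2 (0.0436) and without WT replicate 2 (0.0350).

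Choroid plexus markers were also lower on average in HOM and were set beside Slc12a2 library by library. Their mean log2 CPM over 15 genes was 1.54, -0.41, 0.06 and -0.25 in HOM replicates 1 to 4 and 2.47, 1.95, 1.22 and 4.001 in WT replicates 1 to 4 (HOM minus WT -2.18, exact two-sided permutation test, p = 0.0571). WT replicate 4 was the highest in these markers and in Slc12a2. Within HOM the order differed, since replicate 2 had the lowest marker level and the highest Slc12a2, and HOM replicate 1 was above WT replicate 3 in the markers but below it in Slc12a2. With the marker level as a covariate the log2 fold change of Slc12a2 was -0.21 (SE 0.21, edgeR adjusted p = 0.724), and with HOM replicate 4 and WT replicate 4 left out together it was -0.25 (edgeR adjusted p = 0.194). Of the 15 markers 14 were tested, and of these 6 fell and 0 rose. Over all genes 2.94% were called lower and 2.47% higher. Kcnj13, the marker not tested, lies inside another gene and was listed at 0. Other cells that express Slc12a2 were measured the same way. Endothelial markers differed by -0.34 on the log2 scale (p = 0.0286 in the exact two-sided permutation test, the least that 70 relabellings allow), oligodendrocyte markers by -0.29 (exact permutation p = 0.0571) and astrocyte markers by -0.18 (exact permutation p = 0.114). Of the neuron lists, inhibitory markers differed by -0.25 and excitatory markers by -0.15 (exact permutation p = 0.0571 for either). Pan-neuronal markers differed by -0.11 (exact permutation p = 0.0286) and striatal projection neuron markers by 0.11 (exact permutation p = 0.429). The part of these cell types in the Slc12a2 values was not tested.

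The exporter gene Slc12a5 did not differ beyond the spread between libraries. Slc12a5 (ENSMUSG00000017740, chromosome 2, 164960802 to 164999731, plus strand) lies 99.2 Mb from the trapped gene on the same chromosome. Its level was 692, 678, 762 and 716 CPM in HOM replicates 1 to 4 and 739, 788, 744 and 703 CPM in WT replicates 1 to 4. The groups overlapped, with a log2 fold change of -0.06 (SE 0.06, 95% confidence interval -0.20 to 0.08, edgeR adjusted p = 0.596). Pan-neuronal markers, whose cells are the source of Slc12a5, differed by -0.11 on the log2 scale (exact two-sided permutation test, p = 0.0286). That mean is over 7 genes, of which Tubb3 lies inside another gene and was listed at 0, so the difference over the measured genes is larger.

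The ratio of Slc12a5 to Slc12a2 counts, in which library scaling cancels, was 8.93, 7.56, 9.63 and 12.3 in HOM replicates 1 to 4, against 6.82, 9.25, 7.43 and 5.29 in WT replicates 1 to 4. HOM replicate 4 had the highest ratio and WT replicate 4 the lowest, and WT replicate 2 was above HOM replicates 1 and 2. The means were 9.61 ± 1.99 in HOM and 7.20 ± 1.64 in WT (SD, n = 4). On the log2 scale the difference was 0.42, a factor of 1.34, beside an SD of 0.29 in HOM and 0.33 in WT. It did not pass the exact two-sided permutation test (p = 0.114). The mean ratio per kb of merged exons was 14.1 in HOM and 10.6 in WT. With 1 library left out the difference lay between 0.28 (without WT replicate 4) and 0.55 (without WT replicate 2; exact two-sided permutation test, p = 0.0571). It was 0.30 without HOM replicate 4. With HOM replicate 4 and WT replicate 4 left out together it was 0.16, and with the choroid plexus marker level as a covariate 0.08.

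**Figure D4:**
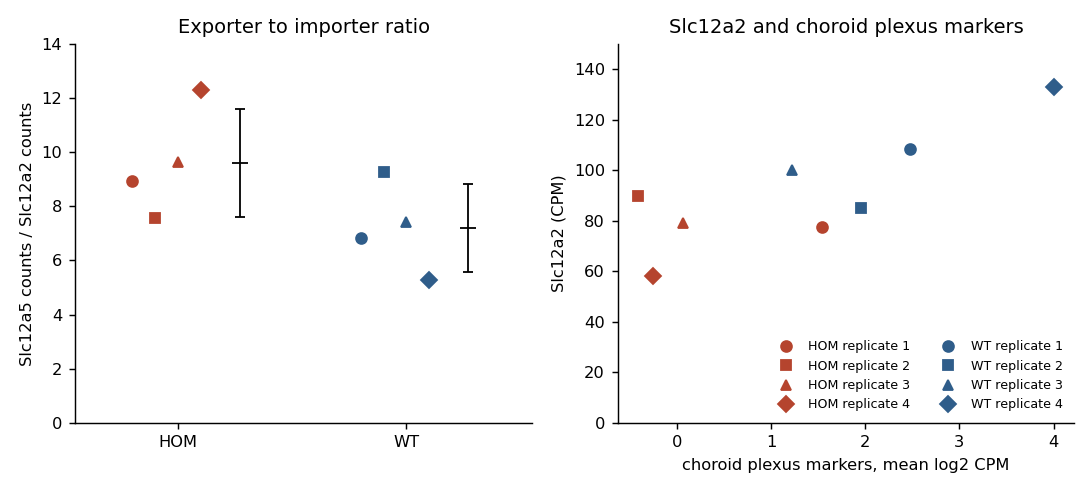
Left, the ratio of Slc12a5 to Slc12a2 counts in each library, HOM left of WT, with the mean ± SD (n = 4) beside each group. Right, Slc12a2 in CPM against the mean log2 CPM of 15 choroid plexus markers in the same libraries, where WT replicate 4 is highest on either axis (133 CPM and 4.001) and HOM replicate 4 lowest in Slc12a2 (58.2 CPM).

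The other SLC12 genes and the kinases that set cotransporter activity gave no call. Of 7 other SLC12 genes, 0 passed with edgeR and 0 with DESeq2, at a median log2 fold change of -0.05. There were 3 with an unadjusted p under 0.05, beside 22.9% of all genes. The potassium-chloride cotransporter gene Slc12a4 stood at 13.3 ± 0.275 CPM in HOM and 16.4 ± 2.70 CPM in WT (SD, n = 4; edgeR adjusted p = 0.124). WNK kinases sense chloride and, through the kinases Stk39 and Oxsr1, activate Slc12a2 and inhibit Slc12a5. Of 11 genes of this kinase group 10 were tested, since Oxsr1 lies inside another gene, was listed at 0 and has no measured value. With edgeR 0 passed, and 5 had an unadjusted p under 0.05, beside 22.9% of all genes. DESeq2 called 1, beside 1900 of all 17395 genes, and the median log2 fold change was -0.26. Without HOM replicate 2 this group had 3 calls, all lower in HOM, beside 1187 of all 17600 genes. Without WT replicate 2 it also had 3, all lower, beside 957 of 17643 genes. The group again had 3, all lower, with 1 surrogate variable, a setting that called 2587 of all 17395 genes. Its smallest p was that of Cab39, a scaffold that activates these kinases, at 163 ± 15.1 CPM in HOM and 199 ± 15.5 CPM in WT (SD, n = 4; log2 fold change -0.28, edgeR adjusted p = 0.0600). Next was Cul3, the ubiquitin ligase scaffold that limits WNK levels, at 117 CPM in HOM and 143 CPM in WT (log2 fold change -0.29, edgeR adjusted p = 0.112). Stk39, given for its position 2.44 Mb from the trapped gene on chromosome 2, stood at 79.1 CPM in HOM and 92.8 CPM in WT (edgeR adjusted p = 0.112).

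Among other anion channels and transporters 2 genes were called, beside 5.40% of all genes tested, 2.94% lower in HOM. Of 5 tested genes of volume-regulated and acid-sensing channels, 1 fell: Lrrc8b, a subunit of the volume-regulated anion channel, stood at 111, 153, 130 and 101 CPM in HOM replicates 1 to 4, against 191, 154, 195 and 166 CPM in WT replicates 1 to 4. The log2 fold change was -0.51 (SE 0.12, edgeR adjusted p = 0.0330). HOM replicate 2 and WT replicate 2 nearly met, and the call ended in the 6 removals that left out HOM replicate 1, 3 or 4 or WT replicate 1, 3 or 4. It also ended with HOM replicate 4 and WT replicate 4 left out together and with the choroid plexus covariate. Lrrc8c, another subunit, did not pass, at 39.2 ± 3.25 CPM in HOM and 44.8 ± 2.11 CPM in WT (SD, n = 4; edgeR adjusted p = 0.147). Of 22 tested genes of bicarbonate transport and carbonic anhydrases, 1 fell, Slc4a5, a bicarbonate transporter gene that is also in the choroid plexus list. It stood at 2.71, 0.211, 0.217 and 0.254 CPM in HOM replicates 1 to 4 and at 6.49, 4.15, 1.58 and 20.1 CPM in WT replicates 1 to 4 (log2 fold change -3.20, SE 0.84, edgeR adjusted p = 0.0477). Only HOM replicate 1 and WT replicate 3 overlapped. Of the 22 genes 10 had an unadjusted p under 0.05, beside 22.9% of all genes. DESeq2 called 4 of the list (1 higher, 3 lower), beside 1900 of all 17395 genes. With 1 surrogate variable 4 were called (1 higher, 3 lower), beside 2587 of all genes. Library totals alone gave 2 (1 higher, 1 lower), beside 1130. Fitting with no filter on low counts gave 2 (0 higher, 2 lower), beside 1010 of 27890. No gene of this list passed without HOM replicate 2, 3 or 4 or without WT replicate 1, 3 or 4. None passed with HOM replicate 4 and WT replicate 4 left out together, with upper-quartile scaling, a minimum of 1 CPM in 4 libraries, limma-voom, robust quasi-likelihood or the choroid plexus covariate. Slc4a5 is itself 1 of the 15 markers averaged into that covariate, so the covariate fit cannot decide on this gene. The anion exchanger gene Slc4a2 stood at 21.8 ± 1.08 CPM in HOM and 31.6 ± 9.91 CPM in WT, and the membrane-bound carbonic anhydrase gene Car4 at 39.8 ± 2.12 CPM in HOM and 47.5 ± 4.27 CPM in WT (SD, n = 4; edgeR adjusted p = 0.0778 for either).

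None of the CLC partner genes, anoctamins or CLIC genes passed in the edgeR fit as reported. CLC partners and kidney CLC genes numbered 5 tested, 1 of them at an unadjusted p under 0.05 and 0 called with DESeq2. Over all genes 22.9% had an unadjusted p under 0.05. Hepacam, the adhesion protein that places the Clcn2 channel at glial junctions, stood at 92.0 ± 10.4 CPM in HOM and 103.3 ± 9.63 CPM in WT (SD, n = 4; edgeR adjusted p = 0.301). Of 15 anoctamin, bestrophin, tweety and Cftr genes 3 had an unadjusted p under 0.05 and 0 were called with DESeq2, with a median of -0.11. Ano3 stood at 141 CPM in HOM and 169 CPM in WT, and Ttyh2 at 34.7 CPM in HOM and 40.95 CPM in WT. With 1 surrogate variable 1 gene of this list was called, higher in HOM, beside 2587 of all 17395 genes. Of 4 CLIC genes 2 had an unadjusted p under 0.05 and 2 were among the 1900 genes called with DESeq2: Clic4, at 57.5 CPM in HOM and 75.7 CPM in WT (edgeR adjusted p = 0.0554), and the choroid plexus gene Clic6, at 6.08 CPM in HOM and 20.8 CPM in WT (edgeR adjusted p = 0.0583). CLIC calls, all lower in HOM, were also 2 with no filter on low counts (1010 of 27890 genes) and 2 with 1 surrogate variable (2587 of 17395). There was 1 with robust quasi-likelihood (979 of 17395), 1 without HOM replicate 2 (1187 of 17600) and 1 without WT replicate 2 (957 of 17643).

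The genes most like 3 of the members in how they varied within genotypes were found by the Pearson correlation of log2 CPM deviations from the genotype means over the 8 libraries, among 13409 protein-coding genes with a mean of at least 1 CPM. This measure is given as a description, and the best of so many genes are high by selection. For Clcn1 they were Dusp6 (0.98), Erich6 (0.97) and Ahr (0.97), for Slc12a2 Brwd3 (0.99), Abca1 (0.99) and Tmem168 (0.97), and for Slc12a5 Spindoc (0.94), Epha10 (0.94) and Ssh3 (0.94). Dusp6, a phosphatase that curbs ERK signalling, varied with Clcn1 within genotypes yet fell between them (log2 fold change -1.09, edgeR adjusted p = 0.000289). Epha10 (0.24, edgeR adjusted p = 0.0315) and Ssh3 (0.30, edgeR adjusted p = 0.0258) rose in HOM, and the other 6 did not pass.

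**Figure D5:**
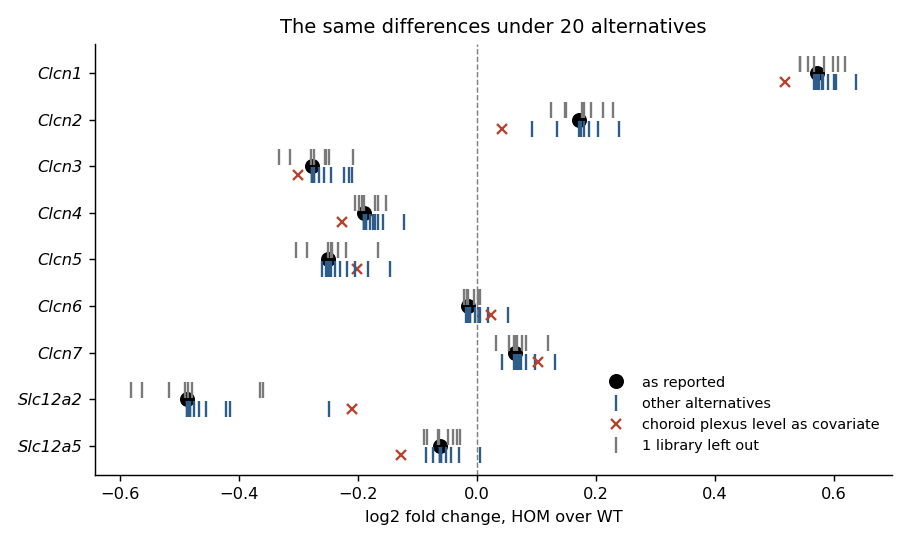
Log2 fold change (HOM over WT) of each gene as reported (black points) and under 20 alternatives, with fits that leave out 1 library as grey ticks, the fit with the choroid plexus level as covariate as a red cross and the rest as blue ticks. Clcn1 stays between 0.52 and 0.64, Slc12a2 ranges from -0.58 to -0.21, and Clcn6 stays between -0.02 and 0.05.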

How the data were processed

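RNA was measured by paired-end sequencing of stranded TruSeq libraries from 4 HOM and 4 WT samples, per the labels' protocols. The authors deposited 1 table of raw read counts per gene. The submitters' processing notes name FastQC 0.11.3, STAR, featureCounts, edgeR and GRCm38. The sources used here give neither the annotation release nor the strand setting. Of 1280 protein-coding genes that lie wholly inside another gene, 1261 were at 0 in every library, against 13.5% of the 20638 others, so counts are taken to cover whole gene bodies and to ignore strand.

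Gene IDs were named with GENCODE M21 (54409 of 54446 matched). No column was left out, and no libraries were duplicates. Genes were filtered with filterByExpr at its defaults (17395 kept), scaled by TMM and tested with edgeR 4.0.16 (quasi-likelihood F test, R 4.3.3), with Benjamini-Hochberg adjustment over all of them and a threshold of 0.05. The step was tested on simulated data. DESeq2 1.42.0, limma 3.58.1 voom and sva 3.50.0 were among 20 alternatives. Levels are CPM, and log2 marker levels use a prior count of 2. Single values were tested with the exact permutation test over 70 relabellings, whose smallest p is 0.0286. SDs and intervals cover the spread between libraries.

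The members and lists were chosen with earlier results of these data known. Of each of the 7 gene lists, every gene past the threshold and up to 2 more of smallest p are named, except 1 gene that is not reported here. Of the 11 marker lists, genes are named only to give a value. Sequences are from RefSeq. Same-numbered replicates are not stated to be paired.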

Additional observations from a re-analysis of the deposited data

Results flagged for a closer look

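Clcn7 was set apart because 1 HOM library lay far from the other 3. HOM replicate 2 stood at 54.8 CPM, and HOM replicates 1, 3 and 4 lay between 62.3 and 62.9 CPM, while the WT libraries ranged from 54.1 to 60.2 CPM. For Clcn7 the log2 fold change was 0.12 without HOM replicate 2, against 0.06 with all libraries. The gap to the nearest HOM library was 0.928 of the whole HOM range. Of 20 groups of values looked at in this way it was the only one past the limit for 4 samples, and chance gives about 1 in 20.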

How the results depend on the processing

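Clcn1 kept its direction in all 20 alternatives and its call in 19, the exception being the choroid plexus level as covariate. The number of members called was 1 as reported, with 940 of all 17395 genes called. It was 2 with no filter beyond 1 count (1010 of 27890 genes called) and 4 with DESeq2 (1900 of 17395). With 1 surrogate variable it was 4 (2587) and with the covariate 0 (35). When 1 library was left out it lay between 1 and 3. It was 3 without HOM replicate 2 (1187 of 17600 genes) and 3 without WT replicate 2 (957 of 17643). Over all genes, 429 were called higher and 511 lower, against 539 and 355 under upper-quartile scaling and 844 and 286 with library totals alone, where the median log2 fold change was 0.07. Clcn6 changed sign, at 0.0188 under upper-quartile scaling, 0.0525 with library totals alone, 0.0047 with at least 1 CPM in 4 libraries, 0.0243 with the covariate and 0.0026 with HOM replicate 4 and WT replicate 4 left out, and ranged from -0.0220 to 0.00625 when 1 library was left out. Slc12a5 changed sign with library totals alone (0.0051). The ratio difference stayed above 0 in its 13 alternatives. None passed, but with HOM replicate 4 and WT replicate 4 left out (smallest possible p 0.1) and with the block none could. Same-numbered libraries did not vary together (correlations from -0.196 to 0.0473, and 0 of 4 best with its own number). With the number as a replicate block 364 genes were called in place of 940, 1 member among them and Lrrc8b not, and the ratio difference had an exact p of 0.25 (smallest possible 0.125). The cause of these shifts was not tested.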
